A study of Homo sapiens with 6 samples.

Results

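PCID2 and its partners in mRNA export were examined by RNA-seq in UWB1.289, an ovarian carcinoma line of human origin that lacks functional BRCA1. The 7 genes, of 26967 named genes in the deposited table, were PCID2, MCM3AP, ENY2, SEM1, CETN2, CETN3 and NXF1. PCID2 was chosen by its lower level in shHBO1 in every numbered pair of libraries, so its difference between the groups is given as a description with no test. The other 6 genes were listed for what they encode. The 3 libraries called shCTRL 1 to 3 came from cells transduced with a lentiviral control hairpin, and the 3 called shHBO1 1 to 3 came from cells transduced with a hairpin against HBO1, the histone acetyltransferase encoded by KAT7. Both groups received polybrene at 10 µg/mL and, from 96 h, puromycin at 1 to 3 µg/mL. The labels do not say how many hairpins were used, so another effect of a hairpin and loss of HBO1 cannot be told apart. Nothing in the labels says that the replicates were separate cultures, so p-values refer to the spread among these 6 libraries alone, part or all of which may be technical.

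TREX-2 is a protein complex that helps to carry newly made mRNA from active genes to the nuclear pore. MCM3AP, also called GANP, is its large scaffold, on which PCID2 and the small acidic protein SEM1 form an RNA-binding surface, while ENY2 and the centrins bind another stretch of the scaffold. The complex docks at the basket on the nuclear side of the pore, and the export receptor NXF1 then carries mRNA through the channel. Several subunits have a second home: ENY2 in the SAGA coactivator, SEM1 in the proteasome and beside BRCA2, and centrins in centrioles and in DNA damage recognition.

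Depth was similar across libraries, with 35940400 to 39908703 reads recovered from the deposited values. Values are normalized counts summed over all transcript rows of a gene, and errors are SD with n = 3 per group. KAT7, the knockdown target, averaged 3707 ± 214 in shCTRL and 888 ± 113 in shHBO1. Its log2 fold change of −2.07 (SE 0.11, limma adjusted p = 0.00123 over 15173 tested genes) was past the threshold of 0.05. Several epithelial markers were abundant, with KRT8 at 90216 to 113300, KRT18 at 66041 to 88354 and EPCAM at 26479 to 29891 normalized counts over the 6 libraries. The Mullerian factor PAX8 lay at 8001 to 11302, CDH1 at 1517 to 2133 and MUC16 at 399 to 1277. WT1, a marker of many serous tumours, lay at only 0 to 26.2. Markers of other cell types lay below EPCAM and PAX8, but CD68 and COL1A1 were in the range of MUC16. The 5 leukocyte genes summed to 502 to 625 in shCTRL and 529 to 663 in shHBO1. Most of that was CD68, at 456 to 633, while PTPRC lay at 14.5 to 50.5. The 5 fibroblast and endothelial genes summed to 555 to 920 and 814 to 966, mostly COL1A1 at 502 to 895, with 1 at 0 in every library. Their part in the results was not tested.

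PCID2 lies on the minus strand of chromosome 13 and faces CUL4A, a ubiquitin ligase scaffold on the plus strand. The 250 bases before its annotated start are shown because 2 of the 4 annotated starts of CUL4A also lie in it, while PCID2 and CUL4A differed in how they compared between groups. The sequence is RefSeq's, from build GRCh38.p14, at chr13:113208670-113208919 on the minus strand, read towards PCID2. Capitals mark a match to the ETS factor motif CCGGAAGT, which starts 32 bases before the annotated start.
PCID2 upstream window: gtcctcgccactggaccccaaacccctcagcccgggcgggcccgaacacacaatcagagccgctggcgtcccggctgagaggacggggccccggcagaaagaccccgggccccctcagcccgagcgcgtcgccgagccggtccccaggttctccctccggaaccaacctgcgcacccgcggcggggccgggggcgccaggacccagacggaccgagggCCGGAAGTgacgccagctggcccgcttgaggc

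The motif was searched on both strands of windows from 250 bases before to 50 bases after each annotated start. CCGGAAGT occurred in 4.14% of 35116 such windows, and in 2 of the 4 windows of CUL4A, of which 2 overlap that of PCID2. The GC box GGGCGG was also present at PCID2, as in 45.0% of windows. The letters of the CRE (TGACGTCA), the E-box (CACGTG), the CCAAT box (CCAAT), the NRF1 motif and the TATA box (TATAAA) were not in the PCID2 window. These matches describe the letters of the window and say nothing of binding.

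The PCID2 transcripts in the table differ at their start and in their coding exons, and 3 stretches that separate them are shown because their rows differed in how they compared between groups. All 9 PCID2 rows were matched by accession to GENCODE release 29 transcripts on GRCh38, several rows to the same transcript. The coding starts, exons and lengths given for a row are those of its match. In the most abundant form the first coding stretch lies at chr13:113208599-113208634. In 3 rows, NM_001258213, NM_001320655 and NM_001320660, coding starts instead at chr13:113208024-113208053, with 1191 rather than 1197 coding bases. The row NM_001320656 carries 159 further coding bases, or 53 codons, at chr13:113197019-113197177, in an exon of 225 bases that has 66 in the other forms. That stretch is most but not all of the difference between its 1359 coding bases and the 1197 of the most abundant form. All 3 stretches are on the minus strand, and capitals mark a start codon.
Usual coding start: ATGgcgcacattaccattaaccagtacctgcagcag
Alternative coding start: ATGcgtctgacagatgttgttcaacagctt
Extra coding stretch of NM_001320656: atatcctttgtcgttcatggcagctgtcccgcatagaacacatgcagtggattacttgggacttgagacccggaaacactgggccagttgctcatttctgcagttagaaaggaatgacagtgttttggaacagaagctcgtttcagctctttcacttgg

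PCID2, the RNA-binding partner of the scaffold, had 54.9% of the control amount after HBO1 knockdown. Its normalized counts were 1249, 1343 and 1663 in shCTRL 1, 2 and 3, and 816, 717 and 803 in shHBO1 1, 2 and 3. The highest shHBO1 library lay below the lowest shCTRL library, and the control libraries spread more widely than the knockdown libraries. Means were 1418 ± 217 in shCTRL and 778 ± 53.7 in shHBO1, a 1.82-fold lower level. On the log2 scale the difference was −0.86 (SE 0.13), computed on log2(normalized count + 1) as throughout. Of the 15173 tested genes, 118 had a lower log2 fold change than PCID2.

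Within the numbered pairs, PCID2 stood at 65.3%, 53.4% and 48.3% of its control in pairs 1, 2 and 3. KAT7 stood at 27.9%, 22.1% and 22.0% in the same pairs. The PCID2 values rest on 1230, 1434 and 1586 recovered reads in shCTRL 1, 2 and 3 and on 873, 704 and 832 in shHBO1. The rule that chose PCID2 did not use differences between replicate numbers, and these could be tested. PCID2 did not pass for such a difference (limma F test with the group as covariate, adjusted p = 0.318), where 9.68% of tested genes did. Averaged over the groups, replicate number 3 lay 0.19 higher than number 1 on the log2 scale. In shCTRL number 3 was the higher, at 1663 against 1249 normalized counts, but in shHBO1 it was not, at 803 against 816.

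**Figure D1:**
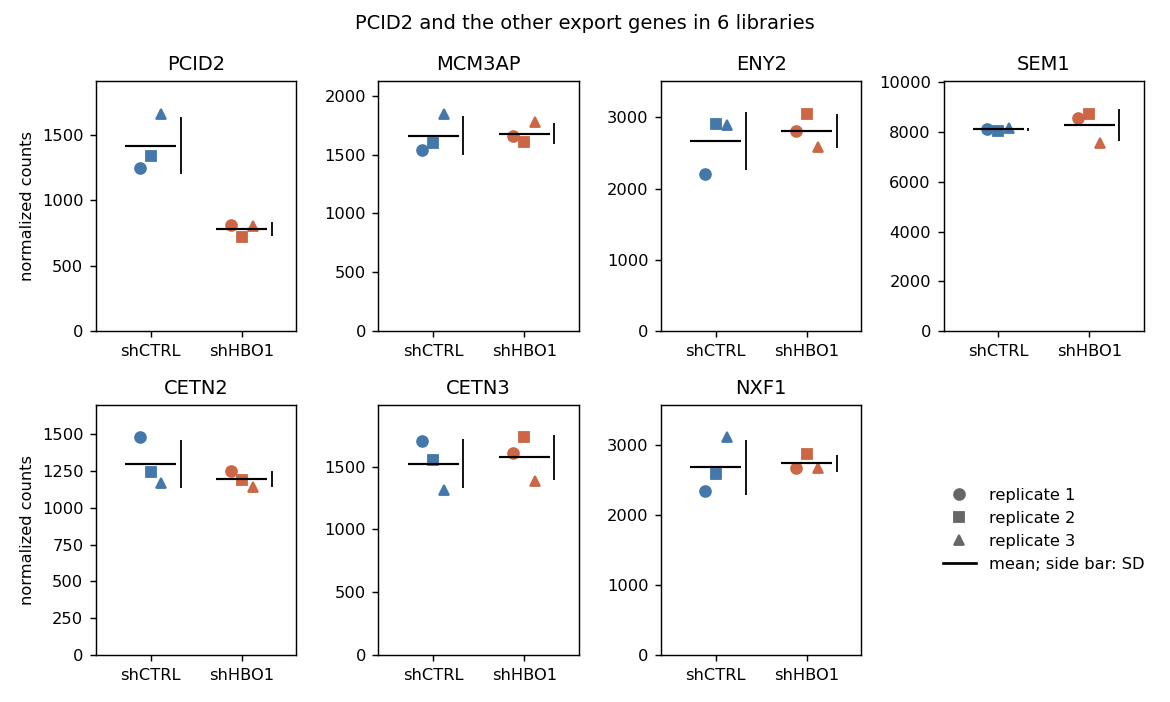
Normalized counts (vertical axes, from 0) of the 7 genes in each library, with shCTRL in blue and shHBO1 in orange, marker shapes for the replicate number, horizontal lines for means and side bars for SD (n = 3). For PCID2 the shHBO1 libraries, at 717 to 816, lie below the shCTRL libraries, at 1249 to 1663, and for the other 6 genes the groups overlap.

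The rows of PCID2 did not all differ alike between the groups, and they too are described without a test because the rule used them. NM_001127202, the most abundant row, held 67.0 ± 2.7% of the PCID2 value in shCTRL and 67.6 ± 6.5% in shHBO1. Its normalized counts were 869, 904 and 1067 in shCTRL 1, 2 and 3, and 570, 432 and 584 in shHBO1. The groups did not overlap, and the shHBO1 mean was 55.8% of control. This row accounted for 65.3% of the drop in the summed PCID2 value.

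NM_018386 had the lowest shHBO1 level relative to control among the 9 rows, while NM_001127202 had the larger difference in counts. It stood at 122, 130 and 252 in shCTRL 1, 2 and 3, from 120, 139 and 240 reads, and at 19.6, 0 and 9.65 in shHBO1, from 21, 0 and 10 reads. All 3 shHBO1 libraries were far below all 3 shCTRL libraries, with a mean at 5.81% of control. The 0 in shHBO1 2, among 704 PCID2 reads, allows a share of up to 0.426%, at 3 reads and for counting error only. NM_001127203, matched to the same GENCODE transcript, stood at 170, 166 and 166 in shCTRL and at 60.7, 93.7 and 75.3 in shHBO1, again with no overlap. Of the 7 PCID2 rows with a mean of at least 10, 3 were lower and 0 higher without overlap, where 4.37% of 33630 such transcript rows were lower without overlap. Since the rule used this contrast, that background is given for reference only.

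Rows with the alternative coding start were not lower in every numbered pair, and the pairs of the 2 larger ones disagreed in direction. NM_001258213, the main one, stood at 55.9, 89.9 and 141 in shCTRL 1, 2 and 3, and at 117, 104 and 52.1 in shHBO1, with overlapping groups and a mean at 95.3% of control. In pairs 1, 2 and 3 its shHBO1 value was 209%, 116% and 37.1% of control. NM_001320655 stood at 7.11 to 14.7 in shCTRL and 4.82 to 17.3 in shHBO1, or 158%, 132% and 32.9% in these pairs. NM_001320656, with the extra coding stretch, stood at 10.2, 40.3 and 11.5 in shCTRL and at 29.9, 38.7 and 45.4 in shHBO1, also overlapping. The remaining 3 rows each held fewer than 30 recovered reads in every library, and 2 of them were higher in shHBO1. NM_001320657 averaged 1.75 ± 3.03 in shCTRL and 18.4 ± 12.2 in shHBO1 with overlapping groups. NM_001320660 stood at 0, 0 and 1.05 in shCTRL and at 1.87, 8.15 and 3.86 in shHBO1, higher without overlap at 8 reads or fewer. NM_001320659 averaged 7.18 ± 7.66 and 0.65 ± 0.57.

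Grouped by matched transcript, the rows of the usual coding start with 14 exons summed to 948 ± 108 in shCTRL and 547 ± 82.4 in shHBO1. The 3 rows NM_018386, NM_001127203 and NM_001320659, with the usual coding start, 15 exons and 1197 coding bases, summed to 342 ± 70.8 and 87.0 ± 6.9, so their share of PCID2 was 24.0 ± 1.8% in shCTRL and 11.2 ± 1.7% in shHBO1. NM_001320656, which also has 15 exons and the usual coding start but 1359 coding bases, averaged 20.7 in shCTRL and 38.0 in shHBO1 (library values above). Rows with the alternative coding start summed to 107 ± 46.8 and 107 ± 39.7, or 7.37 ± 2.19% and 13.8 ± 5.5% of PCID2. These forms share most of their exons, and the labels do not say how reads were divided among overlapping transcripts. A shift between rows and a shift in the division of reads cannot be told apart. The gene sum does not depend on that division if each shared read was kept and counted once, which the labels do not state.

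**Figure D2:**
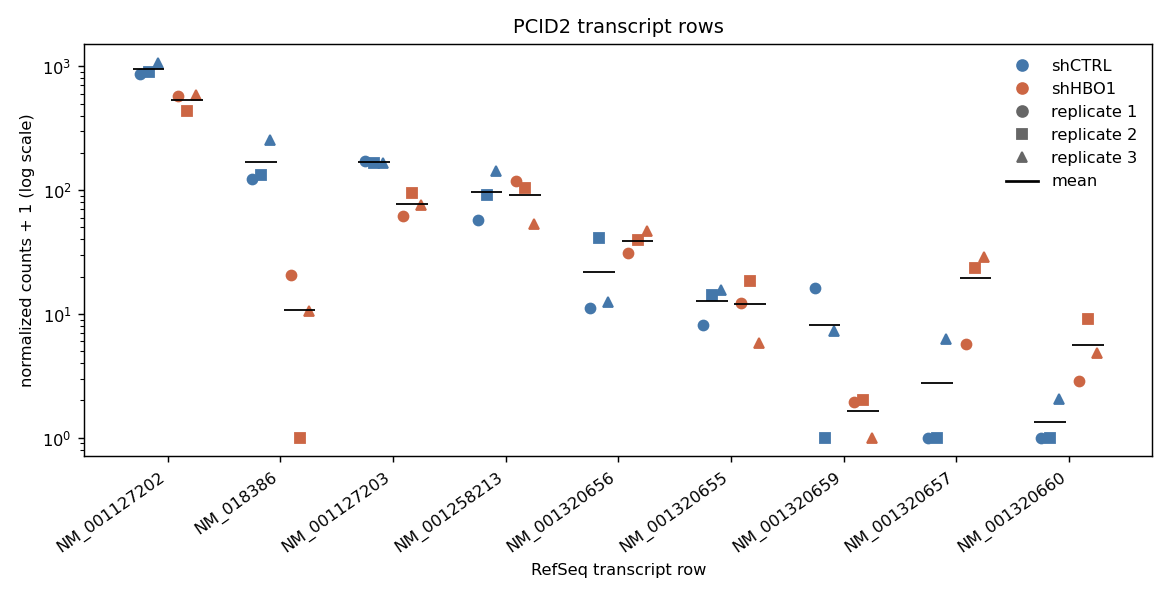
Normalized counts + 1 (vertical axis, log scale) of the 9 PCID2 transcript rows in each library, ordered by their shCTRL mean, with shCTRL in blue, shHBO1 in orange, marker shapes for the replicate number and black lines for means. The shHBO1 points lie below all shCTRL points for NM_001127202, NM_018386 and NM_001127203 and overlap them for NM_001258213.

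The other members of the export group were close to their control levels. In limma 0 of the 6 passed an adjusted p of 0.05 without the replicate block, where 0.00659% of all genes did, and 0 passed with the block, where 0.125% did. At an unadjusted p under 0.05 the limma count was also 0 of 6, where 3.55% of all genes were under it. On the recovered reads 0 of the 6 were called by edgeR without the block (0.00659% of all genes) or with it (0.125%), and 0 by DESeq2 without it (0.125%) or with it (1.13%). Against these shares, 0 of 6 does not set the members apart from other genes. Their median log2 fold change came to 0.033, beside 0.00013 over all tested genes. In 0 of the 6 genes were the groups separated, where 8.93% of all tested genes were.

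MCM3AP, the scaffold, stood at 1537, 1601 and 1847 normalized counts in shCTRL 1, 2 and 3, and at 1654, 1604 and 1774 in shHBO1. The shHBO1 libraries lay inside the control range, and in each the highest library was number 3. Its log2 fold change came to 0.017 (SE 0.095, 95% confidence interval −0.20 to 0.24), with a limma adjusted p = 1.00. A drop of the size seen in PCID2 lay outside that interval. MCM3AP-AS1, an antisense RNA that overlaps the gene, averaged 63.8 ± 18.5 and 69.7 ± 21.8, and reads of the 2 strands could not be separated because the labels do not state strandedness. The MCM3AP relatives LENG8 and SAC3D1, which share its SAC3 domain, had log2 fold changes of 0.091 (SE 0.12) and 0.032 (SE 0.078).

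SEM1, which pairs with PCID2 on the scaffold, stood at 8108, 8050 and 8160 in shCTRL and at 8546, 8733 and 7551 in shHBO1. The control libraries lay within the wider range of the shHBO1 libraries, and the log2 fold change came to 0.027 (SE 0.075, 95% confidence interval −0.15 to 0.20). Almost all of it came from NM_006304, at 8100 ± 54.5 in shCTRL and 8270 ± 640 in shHBO1, and the rows NM_001201450 and NM_001201451 were listed at 0 in all 6 libraries. ENY2 stood at 2197, 2909 and 2891 in shCTRL and at 2802, 3049 and 2576 in shHBO1, with shCTRL 1 the lowest library. Its log2 fold change came to 0.084 (SE 0.13, 95% confidence interval −0.21 to 0.38).

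Among the centrins, small calcium-binding proteins, CETN2 had the lowest estimate of the 6 genes. It stood at 1479, 1245 and 1168 in shCTRL 1, 2 and 3, and at 1253, 1191 and 1144 in shHBO1. The groups overlapped, with shCTRL 1 above the rest, and within pairs 1, 2 and 3 shHBO1 stood at 84.7%, 95.7% and 97.9% of control, lower in each. The log2 fold change came to −0.11 (SE 0.11, 95% confidence interval −0.36 to 0.14). CETN3 stood at 1706, 1554 and 1314 in shCTRL and at 1607, 1734 and 1384 in shHBO1, with number 3 the lowest library of each group. Its log2 fold change came to 0.049 (SE 0.13, 95% confidence interval −0.24 to 0.34), and its difference between replicate numbers did not pass (limma F test, adjusted p = 0.0891).

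NXF1, the receptor that takes mRNA through the pore, stood at 2343, 2576 and 3102 in shCTRL and at 2661, 2869 and 2659 in shHBO1. The shHBO1 values lay inside the control range, and the log2 fold change came to 0.039 (SE 0.11, 95% confidence interval −0.22 to 0.29). Of its rows, NM_006362 averaged 1743 ± 339 and 1790 ± 37.2. The second row, NM_001081491, averaged 930.5 ± 59.3 and 939.9 ± 91.1. The limma fit over all transcript rows called 0.00297% of them, and 0 of the tested rows of these 6 genes were among the calls (lowest adjusted p = 1.00). For a difference between replicate numbers 0 of the 7 members passed the limma F test, where 9.68% of all tested genes did. That count does not set the members apart.

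Levels of different genes were set side by side per kilobase, with each row divided by the length of its matched GENCODE transcript. In shCTRL the order was SEM1 at 6168 ± 41.7 normalized counts per kilobase, ENY2 at 1799 ± 384, NXF1 at 969 ± 156, CETN2 at 892 ± 111, PCID2 at 760 ± 115, CETN3 at 649 ± 95.3 and MCM3AP at 268 ± 26.4. The library ranges of NXF1 and CETN2, of CETN2 and PCID2, and of PCID2 and CETN3 overlapped, whereas SEM1, ENY2 and MCM3AP stood apart from their neighbours in the order. In shHBO1 PCID2 was at 405 ± 29.7 per kilobase and ranked below CETN3 at 673 ± 76.5, with library ranges of 370.5 to 422 and 587 to 734 that did not overlap. MCM3AP, at 271 ± 14.1, was still the lowest.

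The wider export pathway, the complexes that share a subunit with TREX-2, other proteins with a PCI domain and the chromosome neighbours of PCID2 made up 12 lists of 158 genes, of which 152 were tested. By limma 0 of the 152 passed without the block, where 0.00659% of all genes did, and 0 with it, where 0.125% did. Without the block 3 had an unadjusted p under 0.05, a smaller share than the 3.55% of all genes. The median log2 fold change of the 152 genes was 0.024. On the recovered reads edgeR called 0 of them without the block (0.00659% of all genes) or with it (0.125%). DESeq2 also called 0 without it (0.125%) or with it (1.13%). Against these shares, 0 of 152 and the counts of 0 given per list below do not set these genes apart.

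The TREX complex and its adaptors load export factors onto mRNA as it is made. Of 23 tested genes 0 passed in either direction, with a median log2 fold change of 0.0071. The extremes were THOC3 (−0.093) and THOC6 (−0.091), both subunits of the THO core, and ALYREF (0.14) and ZC3H11A (0.17) at the upper end. ALYREF, the main adaptor for NXF1, averaged 11483 ± 1041 in shCTRL and 12658 ± 1007 in shHBO1. THOC6, 1 of the 23, passed for a difference between replicate numbers (limma F test, adjusted p = 0.0103), where 9.68% of all tested genes did. It stood at 1437, 1217 and 834 in shCTRL 1, 2 and 3 and at 1239, 1167 and 834 in shHBO1. The lists of other pore subunits, SAGA genes and centrin partners below each had 1 such gene too, so this does not set THOC6 apart.

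Export receptors and the factors that release mRNA at the outer face of the pore gave a median of 0.045 over 15 tested genes, and 0 passed in either direction. The pore helicase DDX19B (−0.17) and the cap-binding EIF4E (−0.14) had the lowest values, and the testis-type helicase DDX25 (0.19) and the outer filament protein RANBP2 (0.22) the highest. At the pore basket, where TREX-2 docks, TPR had 0.10 (SE 0.086), NUP153 had 0.094 (SE 0.11) and NUP50 had 0.11 (SE 0.12). ZC3HC1, the remaining basket protein, had −0.0034 (SE 0.080), and 0 of these 4 passed. The 25 other pore subunits had a median of 0.0024, from NUP88 (−0.094) and SEC13 (−0.051) to NUP188 (0.12) and NUP214 (0.17), and 0 passed.

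In SAGA, the coactivator that holds ENY2 in its deubiquitinase module, 0 of 24 genes passed and the median was 0.027. TAF12 stood at 1089, 1166 and 1179 in shCTRL and at 1019, 952 and 1027 in shHBO1, with no overlap and a log2 fold change of −0.20 (SE 0.085). The acetyltransferase KAT2B, at 198, 180 and 178 in shCTRL and 209, 245 and 246 in shHBO1, did not overlap either and had 0.33 (SE 0.14). TADA1 (−0.12) and TRRAP (0.18) came next at either end, with overlapping groups. Of the 24 genes, 1 was lower and 1 higher without overlap, a share close to the 8.93% background.

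For SEM1, the 18 genes of the proteasome regulatory particle had a median of 0.029 and ran from PSMC6 (−0.060) and PSMD7 (−0.057) to PSMD2 (0.086) and PSMD12 (0.097), and 0 passed. The 13 other proteins with a PCI domain, the fold that gives PCID2 its name, had a median of 0.021, from COPS7A (−0.12) and COPS4 (−0.085) to EIF3C (0.11) and COPS2 (0.16), and 0 passed. Centrin partners in repair and at centrioles had a median of 0.022 over 10 tested genes, from the centriole protein SFI1 (−0.13) to the centriole proteins POC5 (0.089) and POC1A (0.17), and 0 passed.

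**Figure D3:**
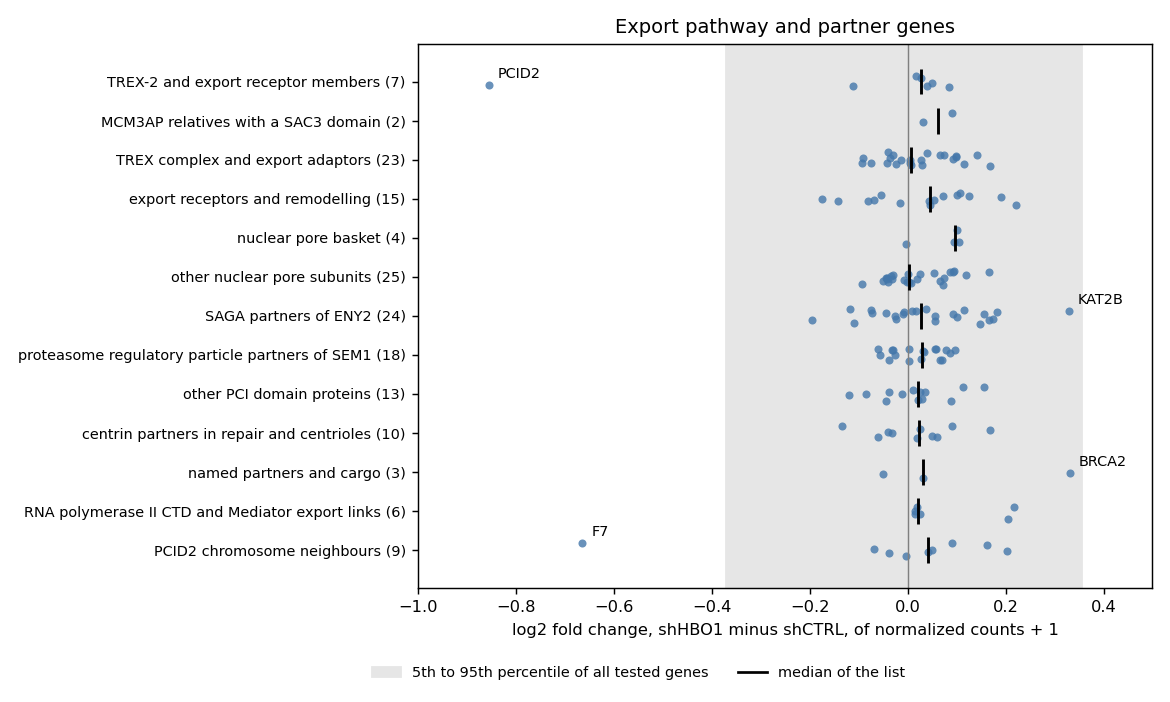
Log2 fold change of normalized counts + 1, shHBO1 minus shCTRL (horizontal axis), for each tested gene of the members and the 12 lists (rows, with the number tested), where points are genes with random vertical spread, black lines are list medians and the grey band spans the 5th to 95th percentile of all tested genes, −0.37 to 0.36. PCID2 at −0.86 and the low-count gene F7 at −0.66 lie outside the band.

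The neighbours of PCID2 on chromosome 13 were examined because CUL4A starts beside it on the opposite strand. CUL4A stood at 1831, 1855 and 2492 in shCTRL 1, 2 and 3, and at 2057, 2012 and 2271 in shHBO1. The groups overlapped, and the log2 fold change came to 0.050 (SE 0.13, 95% confidence interval −0.25 to 0.35), with a limma adjusted p = 1.00. A drop as large as that of PCID2 lay outside this interval. The next genes on that side, LAMP1, a lysosomal membrane protein, and GRTP1, had 0.090 (SE 0.062) and −0.0036 (SE 0.17). LAMP1 was higher in all 3 shHBO1 libraries than in any shCTRL library. It was 1 of 9 tested neighbour genes without overlap, where 8.93% of all tested genes were, so this does not set it apart.

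On the other side of PCID2 the genes PROZ, F10 and F7 encode liver proteins of the clotting system and were silent or low. PROZ was listed at 0 in every library, and F7 averaged 38.8 ± 13.6 in shCTRL and 23.5 ± 5.5 in shHBO1. F7 stood at 69.0%, 71.1% and 48.8% of control in pairs 1, 2 and 3, the groups overlapped, and its log2 fold change of −0.66 (SE 0.36) did not pass (limma adjusted p = 1.00). Of the 9 tested genes in the neighbour list 0 passed, and their median was 0.041, with ATP11A (−0.069) next to F7 at the low end and DCUN1D2 (0.16) and ADPRHL1 (0.20) at the high end. PCID2 and CUL4A overlap in part in the annotation, so reads from the shared stretch could not be assigned to a strand.

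**Figure D4:**
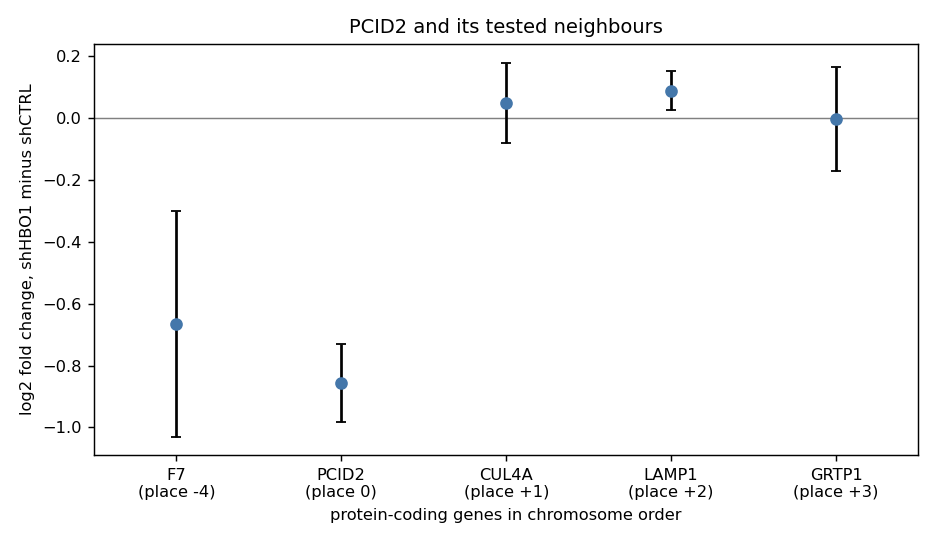
Log2 fold change of normalized counts + 1, shHBO1 minus shCTRL (vertical axis), for PCID2 and the tested genes among its nearest protein-coding genes in chromosome order (horizontal axis), with SE as error bars. PCID2 is at −0.86 and F7, with few counts and a wide error, at −0.66, and CUL4A, LAMP1 and GRTP1 lie between −0.0036 and 0.090.

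The 6 genes whose log2 levels over the 6 libraries were most like those of PCID2 were found among 13219 genes with a mean of at least 50. They were MAPK13, a stress-activated kinase (Pearson r = 0.996), VKORC1 of the vitamin K cycle (0.993), AGBL2, a tubulin carboxypeptidase (0.989), BRINP1 (0.988), SVBP, the partner of the vasohibins (0.985), and PIGT, of the enzyme that attaches lipid anchors (0.984). These values describe 6 libraries in 2 groups and share the gap between the groups, so they have no p. The gaps themselves were smaller than that of PCID2. MAPK13 stood at 2557, 2606 and 2749 in shCTRL and at 2255, 2113 and 2221 in shHBO1, or 83.3% of control. VKORC1 stood at 90.5% of control, AGBL2 at 78.7%, BRINP1 at 88.5%, SVBP at 85.5% and PIGT at 88.8%.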

How the data were processed

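RNA-seq of 3 shCTRL and 3 shHBO1 libraries was analysed from 1 table of size-factor-normalized signal that the authors deposited, with 58215 RefSeq transcript rows. Per the submitters' processing notes the tools were Bowtie 1.2.1.1, SAMtools and DESeq2 and the build hg19, with no roles stated. Dividing the deposited values of a library by what 1 read is worth in it gave whole reads for 100% of values (tolerance 0.01 read). Names came from RefSeq (GRCh38.p14) for 57191 rows and from GENCODE release 29 for 646, and 378 rows without a name were left out. Sequences are on GRCh38 and the counts on hg19, so the 2 were joined by accession or symbol only.

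Rows were summed per gene, and limma-trend (limma 3.58.1, R 4.3.3) was run on log2(normalized count + 1) for genes whose mean reached 10, and p-values were adjusted by Benjamini-Hochberg over all of these. edgeR 4.0.16 and DESeq2 1.42.0 were run on the recovered reads as alternatives. The limma fits and unblocked edgeR and DESeq2 were tested on simulated data. Libraries of the same replicate number deviated together from their group means (correlations 0.32, 0.19 and 0.48 for numbers 1, 2 and 3), each above the limit of 0.1. Unlike numbers ranged from −0.40 to 0.21, and shCTRL 2 with shHBO1 1, at 0.21, exceeded the 0.19 of pair 2. By that limit the number was treated as a pairing and used as a block in an alternative fit. The pairing comes from the data, as the labels name no shared day.

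The members and lists were chosen with earlier results of these data known. Named genes are the members, KAT7, the genes of short lists, the 2 highest and 2 lowest of each other list, and the 6 genes most like PCID2. Marker genes given with values were picked after their values were seen. One listed neighbour gene was not analysed here. One gene that this rule names is not reported here.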

Additional observations from a re-analysis of the deposited data

How the results depend on the processing

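PCID2 had log2 fold changes from −0.94 to −0.74 in the 19 alternatives, which were also the values without shCTRL replicate 1 and without shCTRL replicate 3. It was chosen for this drop and its groups did not overlap, so the shared sign follows from the choice. The range describes the size of the drop and is no further evidence for it. The 6 other members and the 152 list genes had 0 calls in every alternative. With the replicate block limma called 19 genes in all, as did DESeq2 without it and edgeR with it, and DESeq2 with the block called 148, against 1 in the fit without the block. Why the counts differ was not tested, and which genes were shared was not counted. The block changed no call of the 6 other members or of the list genes. PCID2 was in the fits over all genes, but its calls are not reported because it was chosen on this contrast. No total given here serves as a test of PCID2. With each library left out in turn, estimates near 0 changed sign, over ranges of −0.037 to 0.095 for MCM3AP, −0.049 to 0.15 for ENY2, −0.013 to 0.092 for SEM1, −0.054 to 0.14 for CETN3 and −0.051 to 0.15 for NXF1, while CETN2 ran from −0.18 to −0.013. The count of members that passed for a difference between replicate numbers stayed at 0 under other filters, pseudocounts and scaling. Blocked edgeR and DESeq2 were chosen after seeing the data. With 704 to 1586 reads for PCID2 and under 50 reads in its 5 smallest rows, those rows carry little precision.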

Other observations

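The 3 genes of these lists tied to the export machinery or to SEM1 had an unadjusted p under 0.05 and did not pass after adjustment over all genes (limma adjusted p = 1.00 for each). They are 3 of 152 list genes, a smaller share than the 3.55% of all tested genes under that p, and groups without overlap occurred in 8.93% of all tested genes. BRCA2, the repair protein that SEM1 stabilises, stood at 1375, 1110 and 1444 normalized counts in shCTRL 1, 2 and 3, and at 1741, 1509 and 1670 in shHBO1, and its log2 fold change came to 0.33 (SE 0.12). All 3 shHBO1 libraries lay above all 3 shCTRL libraries. POLR2A, the largest subunit of RNA polymerase II, stood at 9149, 9417 and 10718 in shCTRL and at 11485, 11288 and 10911 in shHBO1, and its log2 fold change came to 0.21 (SE 0.078). MED13, of the Mediator kinase module, had 0.22 (SE 0.079), and its groups did not overlap either.

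MAD2L1, a spindle checkpoint gene whose mRNA has been described as an export cargo of PCID2, stood at 2727, 2557 and 2848 in shCTRL and at 2548, 3119 and 2664 in shHBO1. The groups overlapped, with a log2 fold change of 0.031 (SE 0.096). MCM3, the replication helicase subunit for which MCM3AP is named, had −0.050 (SE 0.095). The labels name total RNA and no cell fractions, so the place of an mRNA in nucleus or cytoplasm was not measured.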
